A study of Mus musculus with 6 samples.

Results

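The regulatory circuit around the transcription factor Nrf2 was followed through 10 genes in whole back skin of newborn mice. Members were all probe sets of an Affymetrix mouse array whose gene symbol, or an alias of it, was Nfe2l2, Keap1, Mafg, Mafk, Maff, Bach1, Sqstm1, Cul3, Nfe2l1 or Nfe2l3. This gave 21 probe sets of 45037 tested, for 10 of 18193 genes with a symbol of their own. A probe set is a group of short probes against one transcript, and each was described on its own. All 10 genes were measured, 3 by 1 probe set, 5 by 2, 1 by 3 and 1 by 5, and 0 probe sets that carry several gene symbols included a member.

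The caNrf2 skin came from 3 female K5cre-caNrf2 mice (tg/tg), in which Cre driven by the keratin 5 promoter switches on a constitutively active Nrf2, caNrf2, in keratinocytes. The control skin came from 3 female K5cre-wt mice (tg/wt), which share the K5cre transgene, the litter, the mixed FVB/N and C57BL/6 background and the age of postnatal day 2.5. Each mouse gave 1 array, so n counts animals. The labels contain slips: the genotype cell of the caNrf2 mice reads tg/g, and the treatment cell of the control mice names CaNrf2. Groups were therefore read from the sample titles, which say transgene strong or wildtype strong. What the word strong, shared by all titles, refers to was not determined. Keratin 5 marks basal keratinocytes and the outer layers of the follicle, while the RNA also holds dermis, vessels, muscle and fat, so a change in a share of the cells and a change of RNA per cell cannot be told apart. How the Nrf2 protein of the transgene was made active is not stated in the labels.

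Nrf2, the product of Nfe2l2, is a basic leucine zipper factor that switches on genes for detoxification, glutathione synthesis and NADPH supply. In unstressed cells Keap1 binds it and hands it to a ubiquitin ligase built on the scaffold Cul3, and electrophiles or oxidants disable Keap1. Nrf2 binds DNA as a heterodimer with a small Maf protein (Mafg, Mafk or Maff) at antioxidant response elements, where Bach1, a haem-sensing repressor, competes for the same partners. The autophagy receptor Sqstm1, also named p62, sequesters Keap1. Nfe2l1 and Nfe2l3 encode the related factors Nrf1 and Nrf3. Several of these genes, among them Nfe2l2, Mafg and Sqstm1, are known targets of Nrf2 themselves.

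Arrays were much alike, with Pearson correlations of log2 intensity over probe sets from 0.9976 to 0.998 within caNrf2 and from 0.9973 to 0.9977 within control arrays. Between the groups they ran from 0.9949 to 0.9962. The lower quartile of intensity was 24.86 to 25.31 on caNrf2 arrays and 23.74 to 24.21 on control arrays, and the upper quartile 323.5 to 327.1 and 332.6 to 339.9. For Actb, a control gene read at both ends of its transcript, 3' minus 5' log2 intensity ran from 0.5175 to 0.5376 on caNrf2 arrays and from 0.4795 to 0.5026 on control arrays. For Gapdh, read the same way, it ran from -0.2065 to -0.1589 on caNrf2 arrays and from -0.2197 to -0.1995 on control arrays, which overlap. The part of these readings in the results was not tested. In these female mice Y-linked genes show what a probe set reads without its transcript: 13 such probe sets had group means between 6.46 and 61.6, with a median of 9.59, and 11 of them stayed under 20 in both groups. The highest means were those of Sry on 1450579_x_at, at 61.6 in caNrf2 and 54.7 in control skin. Next came Usp9y on 1452509_at, at 33.6 and 30.5, so the span above that rests on the Sry probe set alone. The keratinocyte markers Krt5, Krt14 and other basal genes were bright, with a summed intensity over 7 markers of 36410 to 36693 in caNrf2 and 36559 to 37447 in control skin. Of these, 1 was lower (Krt15, limma, adjusted p = 0.0482, a call that ended when any 1 of the 6 arrays was left out, with values up to 0.165) and 0 were higher. Of the 6 suprabasal markers 1 was lower, the envelope precursor Ivl, whose call was lost without caNrf2 replicate 3 (adjusted p = 0.0501) or control replicate 3 (0.0513), and 0 were higher. Of 6 fibroblast, 4 endothelial, 6 leukocyte, 4 mast cell, 4 melanocyte, 4 muscle, 2 adipocyte, 2 erythroid and 1 Schwann cell markers, 0 passed the test in limma. At an unadjusted p under 0.05 all 4 melanocyte markers were lower, with a summed intensity of 8447 to 9279 in caNrf2 and 9805 to 10420 in control skin, as were 1 leukocyte and 1 muscle marker, against 8.28% of all genes lower at that threshold. The part of these shifts in the circuit genes was not tested.

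In caNrf2 skin, RNA of 4 circuit genes was higher: Nfe2l2 itself, its DNA-binding partner Mafg, the autophagy receptor Sqstm1 and the inhibitor Keap1. The calls of Keap1 were the least firm: both ended with any 1 array left out and with the replicate number as a block (limma, adjusted p from 0.0593 to 0.147). The other small Mafs, the repressor Bach1, the ligase scaffold Cul3 and the relatives Nfe2l1 and Nfe2l3 did not pass the test. By probe set, 7 of 21 were called higher, 0 lower and 14 were not called (limma with Benjamini-Hochberg adjustment over all probe sets, adjusted p under 0.05), with 4 to 5 called higher when 1 array was left out. Over all probe sets 1.04% were called higher and 0.633% lower. At an unadjusted p under 0.05, 9 of the 21 were higher and 0 lower, against 8.9% and 8.53% of all probe sets. The median log2 fold change was 0.13 over the 21 probe sets, against -0.004 over all. None of the 21 reached a fold of 2, which 99 probe sets of the array did among those called higher. The groups did not overlap in 9 member probe sets with caNrf2 above and in 1 with caNrf2 below, against 11.4% and 11.7% of all probe sets.

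**Figure D1:**
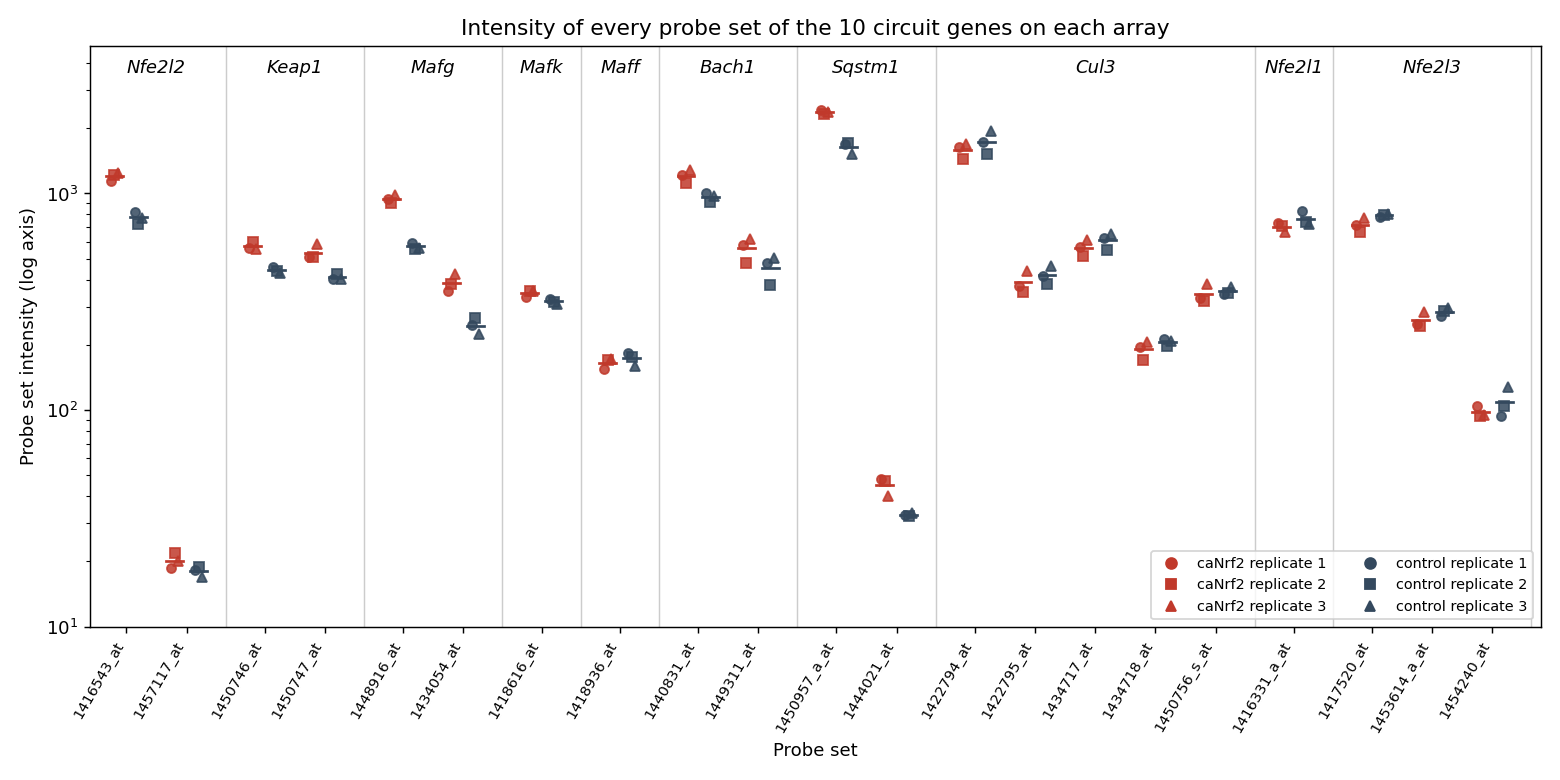
Intensity (log axis) of the 21 probe sets on each of the 6 arrays, with caNrf2 in red on the left and control in dark blue on the right of each probe set, replicates by marker shape and group means as bars. The caNrf2 arrays lie above all control arrays in both probe sets of Keap1, Mafg and Sqstm1, in the brighter one of Nfe2l2 and of Bach1, and narrowly in that of Mafk, which was not called.

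The stretches before the gene starts are shown because Nrf2 with a small Maf binds the antioxidant response element. The core of this element is searched here as TGACNNNGC on either strand. The windows are the 250 bases upstream of a RefSeq gene start (build GRCm38.p6), and all 10 members had at least 1 start. Shown are the 4 member windows that hold the core, with it in capitals, and those of Keap1 and Sqstm1, whose RNA was higher and whose windows hold no such letters. Each is written 5′ to 3′ on the strand of its gene.
Nfe2l2 (chr2:75704664-75704913, minus strand): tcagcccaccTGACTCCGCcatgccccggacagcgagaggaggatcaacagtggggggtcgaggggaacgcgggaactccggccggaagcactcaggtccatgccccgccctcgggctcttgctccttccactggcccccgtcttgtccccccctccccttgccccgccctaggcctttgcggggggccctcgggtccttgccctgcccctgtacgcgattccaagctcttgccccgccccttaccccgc
Mafg (chr11:120633548-120633797, minus strand): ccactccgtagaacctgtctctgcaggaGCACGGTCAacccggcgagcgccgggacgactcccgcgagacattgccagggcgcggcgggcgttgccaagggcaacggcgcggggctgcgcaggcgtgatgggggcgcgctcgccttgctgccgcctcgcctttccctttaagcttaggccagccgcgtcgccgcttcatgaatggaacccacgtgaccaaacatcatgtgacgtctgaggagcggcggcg
Mafk (chr5:139791286-139791535, plus strand): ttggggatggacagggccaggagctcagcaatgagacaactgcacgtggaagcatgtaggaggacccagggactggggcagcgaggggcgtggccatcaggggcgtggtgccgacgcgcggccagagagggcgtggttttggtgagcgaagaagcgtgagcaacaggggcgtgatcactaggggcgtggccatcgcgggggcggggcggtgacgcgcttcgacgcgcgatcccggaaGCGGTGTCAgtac
Maff (chr15:79346371-79346620, plus strand): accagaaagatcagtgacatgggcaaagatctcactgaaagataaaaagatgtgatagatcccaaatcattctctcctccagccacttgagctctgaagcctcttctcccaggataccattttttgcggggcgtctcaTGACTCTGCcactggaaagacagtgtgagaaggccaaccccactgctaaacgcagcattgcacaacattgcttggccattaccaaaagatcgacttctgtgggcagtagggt
Keap1 (chr9:21239333-21239582, minus strand): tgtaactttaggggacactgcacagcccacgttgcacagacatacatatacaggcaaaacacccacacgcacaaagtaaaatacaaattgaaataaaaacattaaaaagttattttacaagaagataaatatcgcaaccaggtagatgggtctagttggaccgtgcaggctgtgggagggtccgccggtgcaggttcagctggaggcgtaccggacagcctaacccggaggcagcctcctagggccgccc
Sqstm1 (chr11:50210821-50211070, minus strand): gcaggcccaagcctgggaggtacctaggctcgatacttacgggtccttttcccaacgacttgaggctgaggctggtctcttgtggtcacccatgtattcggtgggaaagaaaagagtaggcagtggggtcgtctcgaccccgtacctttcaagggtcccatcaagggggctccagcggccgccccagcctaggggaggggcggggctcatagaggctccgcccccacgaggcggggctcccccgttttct

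Numbering bases upward from the one next to the start, the core stands on the gene's strand at 240 to 232 in Nfe2l2 (TGACTCCGC) and at 112 to 104 before the start of Maff that is shown (TGACTCTGC). It stands on the other strand at 222 to 214 in Mafg and at 13 to 5 in Mafk. A gene counted as holding the core when any of its starts did, and the other starts of Maff held none. By that rule it was present in 4 of the 10 member genes, against 13.5% of 14452 tested genes with a window. It was present in 17.9% of 224 genes called higher and 11.8% of 110 called lower. By start, 4 of the 16 member windows held the core, against 10.2% of all 32851 RefSeq starts. The wider motif TGANNNNGC, which contains the first, was present in 6 members and in 40.6% of tested genes, and adds Keap1, at 61 to 53 on the other strand, and Nfe2l1. Of the 4 members with the core, Nfe2l2 and Mafg were called higher and Mafk and Maff were not. Keap1 and Sqstm1 were called without it in their windows. Sequence outside the 250 bases upstream was not searched, so an element elsewhere would be missed. A match is a run of letters and not a measured binding site.

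Nfe2l2, the gene of the transgene's protein, read 1136.1, 1221.8 and 1242.3 in the 3 caNrf2 mice, against 825.2, 726.2 and 773.9 in the 3 control mice, on its bright probe set (1416543_at). Every caNrf2 array lay above every control array. The mean intensity was 1200.1 ± 56.4 in caNrf2 and 775.1 ± 49.5 in control skin (SD, n = 3 each), which differ by 1.55-fold with a 95% confidence interval of 1.38 to 1.74. On the log2 scale the difference was 0.63 ± 0.07 (SE from the fit; limma, adjusted p = 0.00176). Whether this probe set reads the RNA of the transgene, of the mouse's own gene or of both was not determined. Its rise is therefore not a check of the transgene labels. The second probe set, 1457117_at, read 18.7, 21.8 and 20.1 in caNrf2 and 18.3, 18.8 and 16.9 in control skin, inside the span of the Y-linked readings. Its groups overlapped and it was not called (0.16 ± 0.08; limma, adjusted p = 0.315).

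The small Maf proteins bind DNA but lack an activation domain, and they serve as partners of Nrf2 and its relatives. Mafg, by its brighter probe set 1448916_at, read 939.0, 901.7 and 982.6 in caNrf2, against 593.9, 554.7 and 560.7 in control skin. Its second probe set, 1434054_at, read 356.0, 383.5 and 423.8 in caNrf2, against 245.8, 265.5 and 224.9 in control skin. On both, the lowest caNrf2 mouse lay well above the highest control. The 2 probe sets differed between the groups by 0.72 ± 0.07 and 0.66 ± 0.09 on the log2 scale (SE; limma, adjusted p = 0.000351 and 0.00422), the largest estimates of the circuit, at places 161 and 178 of all 45037 probe sets in the order of log2 fold change. Both calls held in every alternative in which the probe set was tested, at adjusted p up to 0.0274.

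Mafk, by its single probe set, read 334.0, 353.9 and 356.3 in caNrf2, against 325.5, 316.6 and 310.1 in control skin. The groups did not overlap, but by a small distance, and the log2 fold change of 0.13 ± 0.06 was not called (limma, adjusted p = 0.316; 95% interval -0.01 to 0.28). Maff, a small Maf known to respond to stress signals, read 155.6, 170.2 and 171.3 in caNrf2, against 183.1, 175.9 and 160.2 in control skin. Its groups overlapped, with a log2 fold change of -0.06 ± 0.08 (limma, adjusted p = 0.705; 95% interval -0.23 to 0.11). The interval of Mafg, 0.57 to 0.87 on its brighter probe set, lay above those of Mafk and Maff. The difference between these genes was not itself tested.

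Sqstm1, the autophagy receptor that holds Keap1, was higher on both of its probe sets. On 1450957_a_at, whose suffix marks a design that reads several transcripts of 1 gene, it read 2429.1, 2337.4 and 2386.9 in caNrf2, against 1691.8, 1711.4 and 1523.6 in control skin, with no overlap and a spread of 45.9 (SD) among caNrf2 mice. The log2 fold change was 0.54 ± 0.07 (limma, adjusted p = 0.00344), or 1.45-fold with a 95% interval of 1.31 to 1.62, and the call held in every alternative. The dim second probe set, 1444021_at, read 48.2, 46.9 and 40.3 in caNrf2, against 32.8, 32.5 and 33.4 in control skin. Its log2 fold change was 0.45 ± 0.08 (limma, adjusted p = 0.0227), a call that ended, at up to 0.0874, with any array left out other than caNrf2 replicate 3. Its readings lie inside the span of the Y-linked ones, but above the 11 of 13 Y-linked probe sets that stayed under 20.

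Keap1, the adaptor that presents Nrf2 to the ligase, was higher on both of its probe sets. On 1450746_at it read 559.4, 599.2 and 554.9 in caNrf2, against 457.8, 437.2 and 430.1 in control skin. On 1450747_at it read 509.7, 506.6 and 584.7 in caNrf2, against 404.8, 423.4 and 402.3 in control skin. The groups were apart on both, with caNrf2 replicate 3 the highest on one and the lowest on the other. Their log2 differences were 0.37 ± 0.07 and 0.38 ± 0.08 (limma, adjusted p = 0.0242 and 0.0404), 1.29-fold and 1.3-fold. Both calls ended whichever array was left out, with an adjusted p of 0.0628 to 0.083 on the first and 0.0657 to 0.147 on the second, while the differences stayed between 0.31 and 0.41.

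Cul3, the scaffold that joins Keap1 to the ubiquitin-conjugating enzyme, had 5 probe sets and none was called. The brightest, 1422794_at, read 1640.6, 1444.2 and 1684.4 in caNrf2, against 1735.0, 1522.5 and 1933.9 in control skin. All 5 overlapped between the groups, and their log2 fold changes ran from -0.12 to -0.05 (limma, adjusted p from 0.507 to 0.805). The 5 probe sets ordered the arrays alike: caNrf2 replicate 3 was the highest and caNrf2 replicate 2 the lowest caNrf2 array in 5 of 5, and control replicate 2 was the lowest control array in 4 of 5. Of these, 1450756_s_at carries the suffix of probe sets that may read more than 1 gene.

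Bach1, the repressor that gives way when haem is bound, had higher means in caNrf2 skin but was not called. On 1440831_at it read 1211.0, 1118.6 and 1281.9 in caNrf2, against 1006.8, 909.0 and 973.4 in control skin. The groups did not overlap, with a log2 fold change of 0.32 ± 0.08 (limma, adjusted p = 0.0737; 95% interval 0.15 to 0.49). On 1449311_at it read 578.1, 477.2 and 619.7 in caNrf2, against 479.8, 379.4 and 504.6 in control skin, where caNrf2 replicate 2 lay below control replicates 1 and 3. That gave 0.30 ± 0.12 (limma, adjusted p = 0.257). The brighter probe set was called in 5 of its 15 alternatives. It passed when 1 probe set stood for each gene (limma, adjusted p = 0.0404), and with 4 other settings, at adjusted p from 0.0125 to 0.0496. With any 1 array left out it was not called (limma, adjusted p from 0.0814 to 0.21). Nor was it with array weights, further quantile normalization, median centring or the replicate block (limma, adjusted p from 0.0536 to 0.0781).

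**Figure D2:**
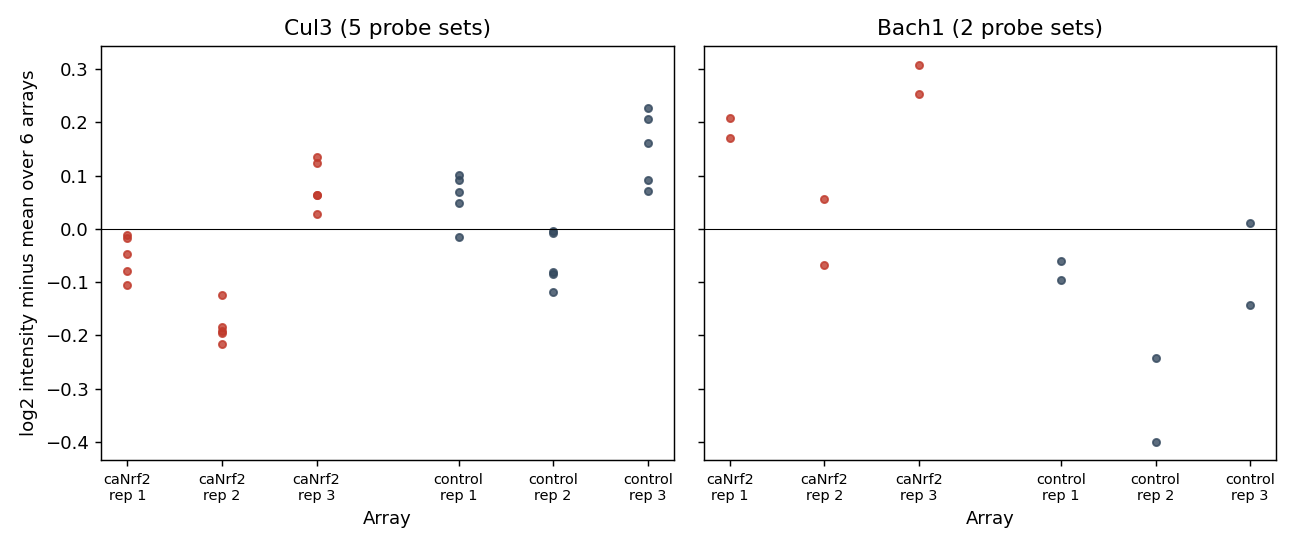
Log2 intensity of each probe set minus its mean over the 6 arrays, for Cul3 on the left and Bach1 on the right, with caNrf2 arrays in red and control arrays in dark blue; each point is 1 probe set. In both genes replicate 2 is the low array of its group on nearly all probe sets, and only for Bach1 do the caNrf2 arrays stand mostly above the control arrays.

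The related factors did not pass either. Nfe2l1, whose product Nrf1 is known for switching on proteasome genes, read 732.8, 710.6 and 666.1 in caNrf2, against 830.3, 737.8 and 721.9 in control skin. Its groups overlapped, with a log2 fold change of -0.12 ± 0.08 (limma, adjusted p = 0.454). Nfe2l3, which codes for Nrf3, read 718.9, 665.7 and 771.8 in caNrf2, against 782.0, 794.5 and 800.3 in control skin on its brightest probe set. These groups were apart, with caNrf2 below, at -0.14 ± 0.07 (limma, adjusted p = 0.334). The other 2 Nfe2l3 probe sets overlapped between the groups and gave -0.13 ± 0.08 and -0.15 ± 0.11. Over the 9 probe sets of Cul3, Nfe2l1 and Nfe2l3, the 95% intervals of the log2 fold change lay between -0.39 and 0.14. The intervals of these 3 genes thus leave room for falls of that size and for small rises.

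**Figure D3:**
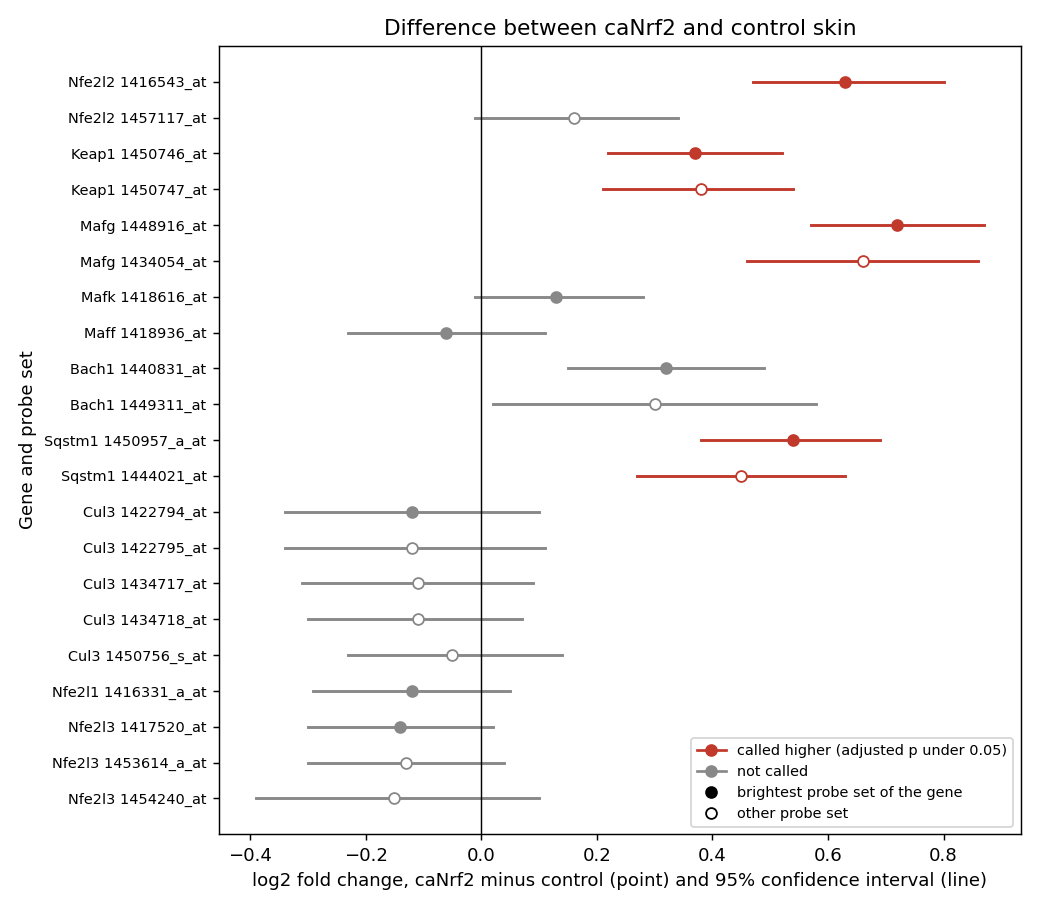
Log2 fold change (caNrf2 minus control) of the 21 probe sets with 95% confidence intervals, red where called higher and grey where not called, filled for the brightest probe set of each gene. The 7 called probe sets lie between 0.37 and 0.72, and the 10 probe sets of Maff, Cul3, Nfe2l1 and Nfe2l3 lie between -0.15 and -0.05.

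Probe sets of the same gene were compared with each other. Of 7 genes with more than 1 probe set, all 7 had the same sign on each, and 6 had all probe sets called or all not called. The exception was Nfe2l2, whose log2 fold changes on the bright and the dim probe set were 0.47 apart, but the dim one lies inside the span of the Y-linked readings. In the other 10 pairs, each set against the brightest of its gene, the difference ran from -0.07 to 0.09. The exact two-sided permutation test over 3 against 3 arrays cannot go below 0.1, and its adjusted p was 1 in each of the 11 pairs, so it could not show whether probe sets of a gene differ.

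**Figure D4:**
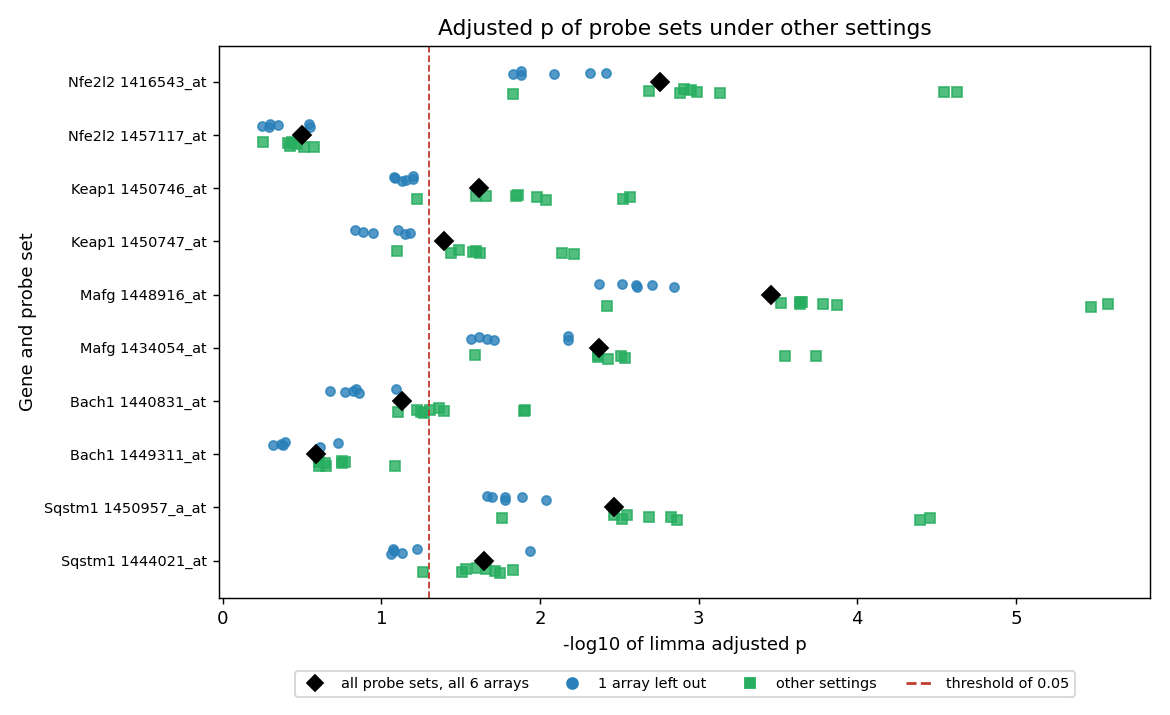
Minus log10 of the limma adjusted p for the probe sets of Nfe2l2, Keap1, Mafg, Bach1 and Sqstm1 with all 6 arrays (black diamonds), with 1 array left out (blue circles) and under other settings (green squares); the dashed line marks 0.05. The brighter probe set of Nfe2l2, both of Mafg and 1450957_a_at of Sqstm1 stay right of the line throughout, while Keap1 falls left of it whenever an array is left out.

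Genes around the circuit were read from the same fit by the brightest probe set of each gene, of which 1.51% were called higher and 0.786% lower. Targets of Nrf2 known from textbooks gave the clearest difference, with 9 of 9 measured called higher at a median log2 fold change of 1.61. The quinone reductase Nqo1 averaged 1419 ± 99.3 in caNrf2 and 67.7 ± 4.36 in control skin (SD, n = 3 each), and the smallest change of the 9 was that of the malic enzyme Me1, with a 95% interval of 0.68 to 0.99. These targets are known responders and were chosen with results of these data known, so their direction is not independent evidence.

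Of 4 other measured factors of the same kind, 1 was lower and 0 were higher. This was Nfe2, whose product is a relative of Nrf2, at 31.7, 29.5 and 29.1 in caNrf2, against 46.4, 45.7 and 43.3 in control skin. The groups were far apart for such a dim probe set, with a log2 fold change of -0.58 ± 0.07 (limma, adjusted p = 0.00165), but both means lay inside the span of the Y-linked readings. Both means were above the 11 of 13 Y-linked probe sets that stayed under 20. The Nfe2 call held in every alternative (limma, adjusted p up to 0.0128). Nfe2 is best known from blood cells; the erythroid markers summed to 199 to 222 in caNrf2 and 176 to 237 in control skin over 2 genes, with 0 called. Their part in this was not tested. With an intensity trend in the fit, with or without robust variances, 2 of the 4 were lower. The second was Maf, with a log2 fold change of -0.24 ± 0.07 (limma, adjusted p = 0.149, against 0.0356 and 0.0335 under those settings).

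Of 15 autophagy partners of Sqstm1, 1 was higher and 0 were lower. Gabarapl1, a ubiquitin-like protein of autophagosome membranes, read 1308.2, 1320.9 and 1271.5 in caNrf2, against 809.8, 790.6 and 750.9 in control skin on 1416419_s_at. Its log2 fold change was 0.73 ± 0.06 (limma, adjusted p = 0.000237), and its other probe set, 1416418_at, gave 0.82 ± 0.08 (limma, adjusted p = 0.000663). The suffix of the brighter one marks probes that may also read a related gene.

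Of 13 ubiquitin ligase parts that act on Nrf2, such as Rbx1 and Gsk3b, 0 were called in limma and 0 had an unadjusted p under 0.05. Of 9 Keap1-binding proteins, 10 coregulators and 8 genes of Nrf1 processing, 0 were called, with 2, 1 and 1 lower and 0 higher at an unadjusted p under 0.05, which 8.28% of all genes passed as lower and 9.72% as higher. Other settings gave calls in a pair of these lists. The Keap1-binding protein Amer1 read 335.6, 318.2 and 330.0 in caNrf2, against 395.6, 394.8 and 394.9 in control skin, with a log2 fold change of -0.27 ± 0.06 (limma, adjusted p = 0.0668). It was called lower with 1 probe set per gene, with an intensity trend, with robust variances added, with log2(value + 16) and with a minimum mean intensity of 32 (adjusted p from 0.0225 to 0.0388). Fbxw7, a ubiquitin ligase subunit of the Nrf1 list, had a log2 fold change of -0.29 ± 0.07 (limma, adjusted p = 0.0904) and was called lower under both trend settings (0.0329 and 0.0294). These genes are named because their calls changed, and were chosen after their values were seen. The medians of the ligase, Keap1-binding, coregulator and Nrf1 lists were -0.02, -0.12, -0.08 and -0.05 on the log2 scale, against -0.004 over all genes.

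The genes whose profile over the 6 arrays was most like that of the bright Nfe2l2 probe set were Epdr1, Slc48a1, Lce3f, Ampd3 and Mocos. Likeness was the root mean square difference of log2 intensities centred on each gene's mean, which ran from 0.0549 for Epdr1 to 0.0627 for Mocos. Slc48a1 transports haem, Lce3f belongs to the late cornified envelope, Ampd3 deaminates AMP and Mocos matures molybdenum cofactor enzymes. Mafg stood at place 8 of 16436 genes by this measure (0.0716), Sqstm1 at 37, Keap1 at 104 and Bach1 at 188, while Mafk stood at 1409 and Maff, Cul3, Nfe2l1 and Nfe2l3 between 10113 and 13964. The measure includes the difference between the groups, and these places carry no test.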

How the data were processed

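Total RNA of back skin (2 ug per mouse) was labelled as biotinylated cRNA for Affymetrix arrays, per the labels' protocols. What the authors deposited is 1 linear intensity per probe set and array, made with RMA per the submitters' processing notes. The RMA version is not given in the sources used here, nor is any step after it. RMA equalises the distributions between arrays, which would hide a general shift of transcripts in one direction. Precision is limited by the small number of arrays.

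Of 45101 probe sets, 64 control probe sets were left out of the fit. Of the rest, 34945 had 1 gene symbol, 932 several and 9160 none. Symbols came from the platform annotation and were updated by Entrez identifier through RefSeq's gene table (34741 matched). Promoter sequences are RefSeq's, build GRCm38.p6. Intensities were log2-transformed and fitted for all probe sets with limma 3.58.1 in R 4.3.3 (lmFit, eBayes, group as the only term, 4 residual degrees of freedom plus 5.72 from the moderation). P-values were two-sided and adjusted by Benjamini-Hochberg over all 45037 probe sets, and a probe set was called at an adjusted p under 0.05. Pairs of probe sets were compared with exact permutation tests (scipy 1.17.1). Where a list needed 1 value per gene, the brightest probe set by its mean over all arrays was taken. The fit was tested on simulated data.

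The members and lists were chosen with earlier results of these data known. Named were all members, up to 6 called genes of each list by smallest p, and the 5 genes most like Nfe2l2. Genes of the lists named without a call serve as examples of their list, and were chosen after their values were seen. Of 150 list and marker entries, 130 were measured. Alternatives were 1 probe set per gene, an intensity trend with and without robust variances, array weights, log2(value + 16), a minimum mean intensity of 32, further quantile normalization, median centring, the replicate number as a block and leaving out each array.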

Additional observations from a re-analysis of the deposited data

How the results depend on the processing

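Over the 21 member probe sets, direction and side of the threshold held in 277 comparisons with an alternative, 20 lost a call and 5 gained one. The bright Nfe2l2 probe set, both of Mafg and 1450957_a_at of Sqstm1 kept their calls in every alternative in which they were tested. The 5 gains were all of Bach1 1440831_at, at adjusted p = 0.0125 with an intensity trend, 0.0126 with robust variances added, 0.0404 with 1 probe set per gene, 0.0434 with log2(value + 16) and 0.0496 with a minimum mean intensity of 32. The only change of sign was that of Cul3 1450756_s_at without caNrf2 replicate 2, at 0.00474 on the log2 scale, where leaving out 1 array gave -0.12 to 0.00474. The count of member probe sets called higher was 4 to 5 with 1 array left out, against 7 with all. It was 4 with the replicate block too, which took the calls from both Keap1 probe sets and from Sqstm1 1444021_at. Over all probe sets the replicate block gave 342 higher and 177 lower. After removal of group means, same-numbered arrays correlated weakly but positively (r = 0.0413, 0.1567 and 0.0826 for numbers 1, 2 and 3). Between arrays of different numbers r ran from -0.1394 to 0.0695. The highest of these, of caNrf2 replicate 1 with control replicate 3, exceeded that replicate's r with its own number. Whether the numbers mark a pairing was not determined, and the main fit used no block. Over all probe sets, 470 were higher and 285 lower. With 1 array left out these were 280 to 354 and 79 to 270. The lower count was 577 with an intensity trend, 610 with robust variances added and 428 with log2(value + 16). The cause of these shifts was not tested. Dim probe sets, such as 1457117_at and 1444021_at, lie inside the span of the Y-linked readings, which limits what their folds can show.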
